A study of Drosophila melanogaster with 6 samples.

Results

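The genes described here are 8 neuropeptide genes of ecdysis and cuticle hardening in Drosophila melanogaster: ETH (CG18105), Eh (CG5400), CCAP (CG4910), Burs (CG13419), Pburs (CG15284), Crz (CG3302), FMRFa (CG2346) and Ms (CG6440). They were chosen by gene identity and not by a threshold on their values, although earlier results of these data were known. They were taken as the transcripts carrying their CG numbers in the deposited tables. Each of the 8 genes has 1 transcript there, so 8 of 21081 transcripts and 8 of 14012 genes are described. RNA came from pooled brains of larvae at the wandering stage in 6 samples, 2 per group. The culture temperature was 25 °C, and a liter of the medium held 35 g of yeast. Ablation larvae carried E347-GAL4 over a yw chromosome with UAS-ShiDN, and a second UAS-ShiDN over a wild-type second chromosome (100 and 91 brains). Activation larvae carried E347-GAL4 over a yw chromosome, and UAS-NachBac on the third chromosome (100 and 97 brains). Control larvae carried E347-GAL4 over w1118 and no UAS transgene (100 and 86 brains). All groups thus carry the driver on a w chromosome, a GAL4 line that drives UAS transgenes in the cells it labels, and the sources used here do not say which cells those are. UAS-ShiDN encodes a dominant-negative form of the dynamin shibire, which vesicle recycling at synapses needs, and NachBac is a bacterial sodium channel that makes neurons more excitable. No group here carries a UAS transgene without the driver, and the yw chromosome is in both manipulated groups but not in control.

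Ecdysis, the shedding of the old cuticle, is run by a cascade of peptide hormones. ETH (ecdysis triggering hormone) comes from Inka cells, endocrine cells on the tracheae, and acts with eclosion hormone on central neurons that then release CCAP, bursicon and other peptides. Bursicon is a dimer of the Burs and Pburs proteins and leads to tanning and hardening of the new cuticle. Corazonin (Crz), FMRFa and myosuppressin (Ms) are peptides of the brain and ventral nerve cord with roles in stress and metabolism, muscle and ecdysis, and inhibition of visceral muscle.

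The values are the authors' group values in FPKM, that is fragments scaled by transcript length and library size, 1 value per group and table. They hold no value per sample, so no standard deviation stands beside them, and the sequencing depth is unknown. What serves as an error here is the log2 fold change of the authors' deposited table divided by its test statistic. This ratio is called the implied standard error below. The deposited p-values need not follow from that statistic. Burs in activation against control has a statistic of 1.79 and Eh in ablation against activation one of 1.69. The larger statistic, that of Burs, has the larger deposited p. An implied standard error and the p printed beside it are thus not to be read as the same test. A call is a transcript tested by Cuffdiff with a deposited q of at most 0.05. In whole-brain RNA, fewer cells of a type and less RNA per cell cannot be told apart. The labels do not say whether the 2 samples of a group came from separate crosses or cultures. The deposited p-values test a difference against a spread estimated from these samples, and that spread may be technical.

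All 8 genes were detected in every group, and no value was at 0. Crz and Ms were the most abundant, and together they held 70.7% of the summed level of the 8 genes in ablation and 76.2% in control in the table of that pair, and 68.4% in activation in its table with control. The lowest value of Crz or Ms in any group was 120.9 FPKM, and the highest of the other 6 genes was 38.4 FPKM. In control the order from high to low was Crz, Ms, ETH, FMRFa, Eh, Pburs, CCAP and Burs. In ablation it was Crz, Ms, FMRFa, CCAP, Pburs, Burs, Eh and ETH, and in activation Crz, Ms, FMRFa, Burs, CCAP, ETH, Pburs and Eh. With no spread per group, it cannot be said which neighbours in these orders differ.

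**Figure D1:**
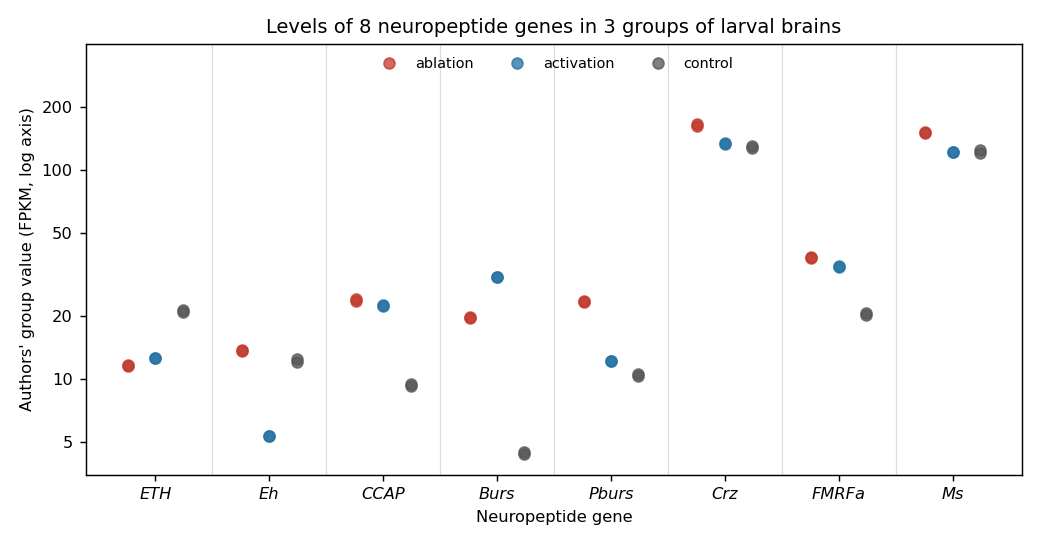
Authors' group values in FPKM (log axis) of the 8 genes in ablation, activation and control, with 1 point per deposited table that holds the group. The 2 points of a group lie nearly on each other, Burs is lowest in control at 4.41 to 4.52 FPKM, and Eh is lowest in activation at 5.34 to 5.39 FPKM.

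None of the 8 genes passed the test in any comparison. In ablation against control 0 of the 8 were called, against 0.154% of all 11676 tested transcripts, and 0 had an unadjusted p under 0.05, against 2.05%. In activation against control 0 of 8 were called, against 0% of 11809, and 0 had an unadjusted p under 0.05, against 3.05%. In ablation against activation 0 of 8 were called, against 0.37% of 12419, and 0 had an unadjusted p under 0.05, against 3.21%. The smallest p that the authors' deposited tables hold is 5e-05, shared by 18, 11 and 38 transcripts in these 3 comparisons, and the smallest q are 0.0324, 0.0537 and 0.0163, so no transcript could be called in activation against control. The background shares are themselves near 0, so nothing is read from the absence of calls among 8 transcripts. The smallest p of a member in the authors' deposited tables was 0.0507, for Eh in ablation against activation.

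The values themselves differed by up to 6.98-fold. In ablation 7 of the 8 were higher and 1 lower than in control, with a median log2 change of 0.60 on the log2(FPKM + 1) scale, while 56.4% of all 8512 tested genes were higher, with a median of 0.10. In activation 6 were higher and 2 lower than in control, with a median of 0.15 against 0.10 over all 8514 tested genes. Of those tested genes 56.6% were higher. Crz and Ms in activation, at log2 changes of 0.07 and 0.01 on that scale, fall below 0 when changes are centred on the median of genes with at least 1 FPKM, which is 0.11 in both comparisons with control. In ablation 6 were higher and 2 lower than in activation, with a median of 0.20 against 0.01 over all 8959 tested genes. Of those tested genes 51.2% were higher. These shares and medians are also the background for the counts and medians of the gene lists below. The comparisons of ablation and of activation with control use the same 2 control samples.

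**Figure D2:**
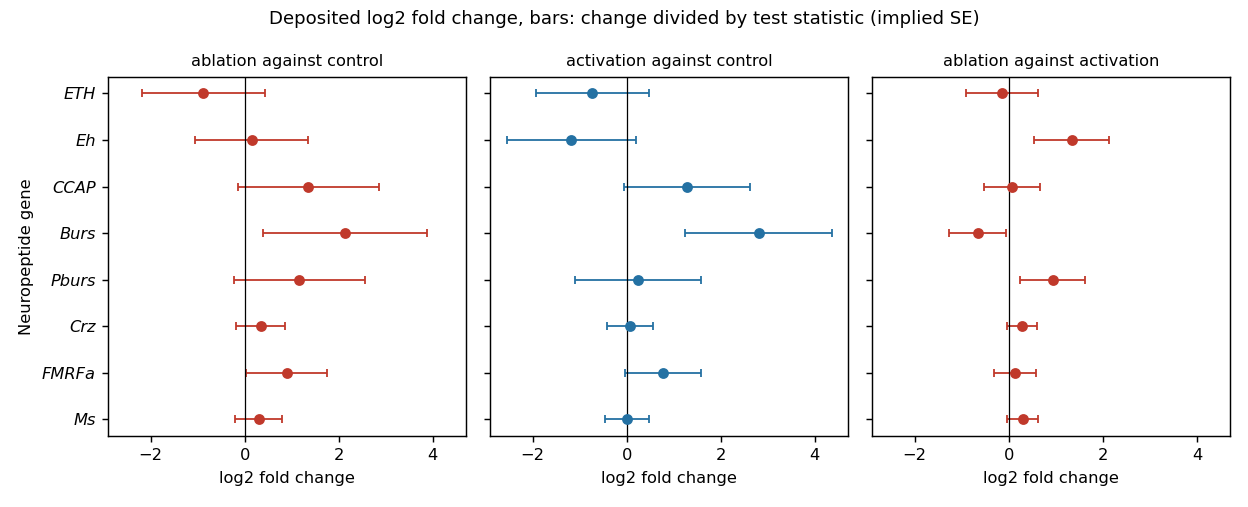
Log2 fold change of the 8 genes in the authors' deposited tables, with bars of 1 implied standard error on each side. Bars are widest for Burs against control, at 1.75 in ablation and 1.56 in activation, and narrowest for Crz and Ms.

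ETH, the peptide that starts the ecdysis program, was lower in both manipulations than in control. It had 11.7 FPKM in ablation, against 21.5 FPKM in control. It had 12.6 FPKM in activation, against 20.9 FPKM in control. The log2 fold change in the authors' deposited tables was -0.88 in ablation (implied standard error 1.31, p = 0.512, q = 0.974) and -0.73 in activation (implied standard error 1.20, p = 0.537, q = 0.915). Each difference is smaller than its implied error. Ablation and activation themselves were close, at 11.5 FPKM in ablation and 12.7 FPKM in activation. Inka cells do not lie in the brain, so markers of trachea and epidermis stand beside ETH here. Of 9 such markers 1 was higher and 7 were lower in ablation than in control, and their sum was 442 FPKM in ablation and 1385 FPKM in control. In activation 3 were higher and 6 lower, with a sum of 241 FPKM in activation and 1347 FPKM in control. The larval cuticle genes Lcp1, Lcp3 and Lcp4 make up most of these sums. They had 156, 134 and 127 FPKM in ablation, against 729, 254 and 375 FPKM in control. In activation they had 120, 36.0 and 47.8 FPKM, against 709, 247 and 365 FPKM in control. The other markers each had at most 13.3 FPKM, so the sums say little of tracheal RNA. Gasp, a tracheal chitin-binding protein, had 10.2 FPKM in ablation and 3.02 FPKM in control. In activation Gasp and verm were higher than in control, and trh, btl and serp were lower. TwdlE, another cuticle gene of this list, was listed at 0 in ablation and in control. Their part in the ETH values was not tested.

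Eh encodes eclosion hormone, made by a pair of brain neurons that act on Inka cells and on the ecdysis circuit. It was the gene with the smallest p, and its low value was in activation. Eh had 13.8 FPKM in ablation, against 12.5 FPKM in control. It had 5.34 FPKM in activation, against 12.1 FPKM in control. It had 13.6 FPKM in ablation, against 5.39 FPKM in activation. Ablation was thus near control and activation was the lowest group. In the authors' deposited tables the log2 fold change was 0.15 in ablation against control (implied standard error 1.21, p = 0.883), -1.18 in activation against control (1.38, p = 0.316) and 1.34 in ablation against activation (0.79, p = 0.0507). The q of the last was 0.999, and 77.2% of the tested transcripts had a smaller change in size there.

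CCAP, crustacean cardioactive peptide, is made by neurons that drive the ecdysis motor program, and some of these neurons also make bursicon. CCAP had 24.1 FPKM in ablation, against 9.47 FPKM in control. It had 22.5 FPKM in activation, against 9.25 FPKM in control. Both manipulations stood above control by 2.55-fold and 2.44-fold, and near each other, at 23.8 FPKM in ablation and 22.7 FPKM in activation. Neither difference from control passed in the authors' deposited tables, with log2 fold changes of 1.35 (implied standard error 1.5, p = 0.422) and 1.28 (1.34, p = 0.428). The deposited locus of CCAP also holds CG6972, another gene, which was listed at 0 in ablation and in control.

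Burs, the alpha subunit of bursicon, had the largest differences from control of the 8 genes. It had 19.9 FPKM in ablation, against 4.52 FPKM in control, which is 4.41-fold higher. It had 30.8 FPKM in activation, against 4.41 FPKM in control, which is 6.98-fold higher. Control was the lowest value of any of the 8 genes in any group. In the authors' deposited tables the log2 fold change was 2.14 in ablation (implied standard error 1.75, p = 0.305, q = 0.974) and 2.80 in activation (1.56, p = 0.160, q = 0.915). These changes were larger in size than those of 81.3% of tested transcripts in ablation and 84.9% in activation, and still did not pass. Against activation, ablation was at 19.6 FPKM and activation at 31.0 FPKM (p = 0.354 in the authors' deposited table).

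Pburs, the beta subunit with which Burs forms the active hormone, had a smaller difference in activation. Pburs had 23.7 FPKM in ablation, against 10.6 FPKM in control (log2 fold change 1.16, implied standard error 1.39 and p = 0.544 in the authors' deposited table). It had 12.2 FPKM in activation, against 10.4 FPKM in control (0.24, 1.34 and p = 0.900 in the authors' deposited table). Between the manipulations it had 23.4 FPKM in ablation and 12.3 FPKM in activation (0.93, 0.69 and p = 0.333 in the authors' deposited table). The high group was thus ablation for Pburs and activation for Burs. The ratio of Burs to Pburs, both in FPKM and so per length, was 0.839 in ablation, 2.52 in activation and 0.426 in control. No error can be given for these ratios. The deposited loci of Burs (3R, 17595273 to 17595916) and Pburs (2L, 14416835 to 14417318) are 644 and 484 bases wide, the same as the span from start to stop codon in the current annotation, so the gene models behind these 2 values hold no untranslated regions.

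Corazonin, FMRFa and myosuppressin had the smallest implied errors of the 8 genes in all 3 comparisons. Crz had 166 FPKM in ablation, against 131 FPKM in control, and 134 FPKM in activation, against 127 FPKM in control. Ms had 152 FPKM in ablation, against 124 FPKM in control, and 121.4 FPKM in activation, against 120.9 FPKM in control. Both genes were highest in ablation, by 1.27-fold and 1.23-fold over control, and in activation they were at 1.05-fold and 1.00-fold of control. Their log2 fold changes in ablation in the authors' deposited table were 0.34 for Crz (implied standard error 0.52, p = 0.546) and 0.30 for Ms (0.50, p = 0.514). FMRFa, made among other cells by the neuroendocrine Tv neurons of the ventral nerve cord, had 38.4 FPKM in ablation, against 20.8 FPKM in control. It had 34.4 FPKM in activation, against 20.3 FPKM in control. Both manipulations were above control by 1.85-fold and 1.70-fold, with log2 fold changes of 0.89 (0.86, p = 0.209) and 0.77 (0.80, p = 0.238) in the authors' deposited tables. Against activation, ablation differed in none of the 3 beyond 1.23-fold, with p of 0.419 for Crz, 0.731 for FMRFa and 0.314 for Ms in the authors' deposited table.

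**Figure D3:**
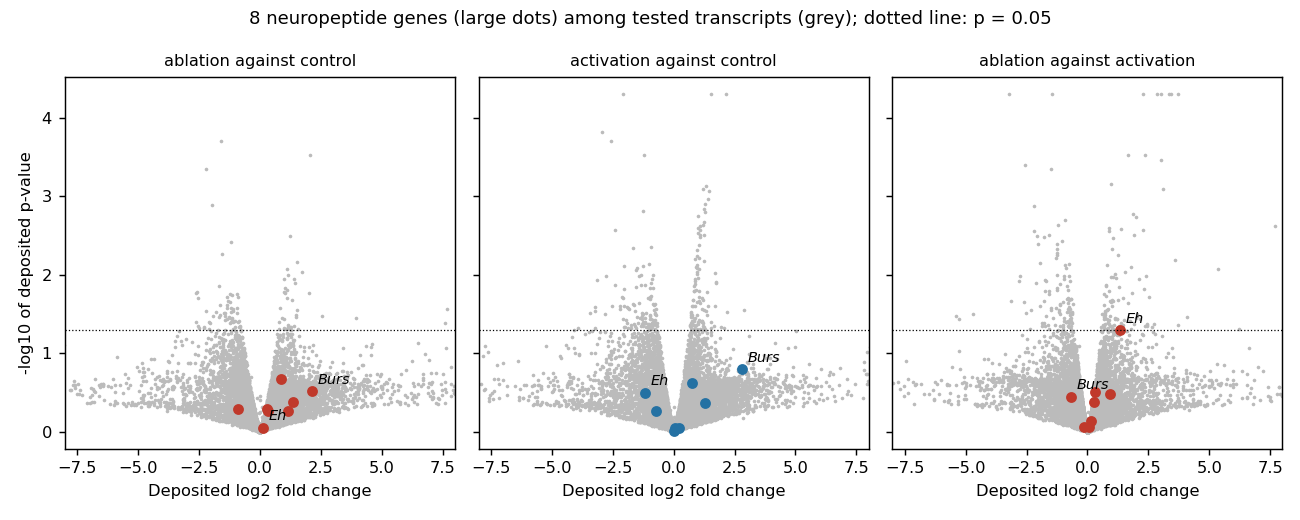
Deposited log2 fold change (horizontal, cut at the panel edges) against -log10 of the deposited p-value (vertical) for tested transcripts above 0 in both groups (grey) and the 8 genes (large dots), 1 panel per comparison. All large dots lie below the dotted line of unadjusted significance, and Eh in ablation against activation lies closest to it.

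The implied errors differed between comparisons. For all 8 genes the implied standard error was smaller in ablation against activation than in either comparison with control, for example 0.60 for Burs there and 0.59 for CCAP. This was so over the whole table too, with a median of 0.80 over 11556 transcripts in ablation against activation, 1.36 over 10873 in ablation against control and 1.28 over 11068 in activation against control. Among transcripts whose higher group value lay within the range of the 8 genes, 0.15% were called in ablation against control and 0.363% in ablation against activation.

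The receptors of these peptides had low levels, up to 7.84 FPKM for CCAP-R and at most 4.41 FPKM for the other 6, and none was called in any comparison. CCAP-R, the CCAP receptor, had 0.865 FPKM in ablation, against 7.84 FPKM in control (p = 0.0787 in the authors' deposited table), and 3.37 FPKM in activation, against 7.63 FPKM in control (p = 0.286). Control was the highest group for CCAP-R and the lowest for CCAP, whose values in ablation and activation were near each other. ETHR, the ETH receptor, had 2.53 FPKM in ablation, against 1.82 FPKM in control, and 0.734 FPKM in activation, against 1.77 FPKM in control. The bursicon receptor rk had 1.02 FPKM in ablation, against 0.254 FPKM in control, and 1.52 FPKM in activation, against 0.248 FPKM in control, and was not tested in these pairs. The corazonin receptor CrzR had 2.19 FPKM in ablation, against 1.60 FPKM in control, and 3.63 FPKM in activation, against 1.57 FPKM in control. FMRFaR, the FMRFa receptor, stood highest in ablation, at 4.41 FPKM, against 1.43 FPKM in control. It had 1.31 FPKM in activation, against 1.40 FPKM in control, and between ablation at 4.36 FPKM and activation at 1.31 FPKM the authors' deposited table gives p = 0.0387 with a q of 0.999. The myosuppressin receptors MsR1 and MsR2 had 1.53 and 1.08 FPKM in ablation, against 0.887 and 0.337 FPKM in control. For MsR2 these are sums over 2 transcripts, of which 1 was tested. That transcript had 1.08 FPKM in ablation, against 0.00522 FPKM in control. Its unadjusted p was 0.0269 (q = 0.974) in the authors' deposited table, and it rests on a control value near 0. In activation MsR1 and MsR2 had 2.09 and 0.900 FPKM, against 0.866 and 0.329 FPKM in control. Of the tested receptors 5 of 6 were higher in ablation than in control, 2 of 5 in activation than in control and 3 of 7 in ablation than in activation.

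Other peptides and receptors of the ecdysis circuit held no call in any comparison either. Of 7 genes 5 were higher in ablation than in control, with a median log2 change of 0.33, and 6 in activation than in control, with a median of 0.48. Dh44, a diuretic hormone, had 32.9 FPKM in ablation, against 19.3 FPKM in control, and its receptor gene Dh44-R2 had 11.7 FPKM in ablation, against 6.40 FPKM in control. SPR, a receptor for myoinhibitory peptides, had 5.38 FPKM in ablation, against 2.96 FPKM in control. Lkr, the leucokinin receptor, was lower in ablation, with 2.83 FPKM in ablation, against 4.14 FPKM in control. In activation these 4 genes had 26.6, 12.1, 5.32 and 5.29 FPKM, against 18.8, 6.25, 2.89 and 4.03 FPKM in control, so all 4 were higher.

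Regulators of the cascade in the ecdysone pathway and of ETH gave 0 calls. Of 6 tested genes 3 were higher in ablation than in control, with a median of 0.02, and 4 in activation than in control, with a median of 0.41. The largest difference among tested genes was in ftz-f1, a nuclear receptor that times ecdysis behaviour. Its sum was 7.69 FPKM in ablation, against 3.15 FPKM in control, and 7.69 FPKM in activation, against 3.08 FPKM in control. For its 1 tested transcript the authors' deposited tables give p = 0.362 in ablation and p = 0.372 in activation. The sum over transcripts of crc, a leucine zipper factor needed for ETH expression, was 639 FPKM in ablation, against 482 FPKM in control, and 711 FPKM in activation, against 469 FPKM in control. ETH itself was lower in both, and a link between crc and ETH levels was not tested. The ecdysone receptor pair EcR and usp had sums of 22.4 and 36.3 FPKM in ablation, against 20.8 and 38.1 FPKM in control, and 28.8 and 27.8 FPKM in activation, against 20.2 and 37.1 FPKM in control.

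Factors that give peptidergic neurons their identity held no call and were split evenly in ablation, with 7 of 14 higher than in control. In activation 9 of 13 tested genes were higher. dimm, the master factor of the peptide secretory state, had 2.59 FPKM in ablation, against 0.288 FPKM in control (p = 0.304 in the authors' deposited table), and 0.753 FPKM in activation, against 0.282 FPKM in control, where it was not tested. kn (collier), which acts in the lineage of the FMRFa-making Tv neurons, had a sum of 15.2 FPKM in ablation, against 5.09 FPKM in control, and 13.8 FPKM in activation, against 4.97 FPKM in control. gbb, the BMP ligand that Tv neurons need to express FMRFa, was lower, with 29.6 FPKM in ablation, against 68.1 FPKM in control (unadjusted p = 0.0357 in the authors' deposited table, q = 0.974), and 35.6 FPKM in activation, against 66.2 FPKM in control (p = 0.0607). FMRFa was higher in both manipulations, as given above, and a link between gbb and FMRFa levels was not tested. eya, a cofactor in Tv neurons, had 11.3 FPKM in ablation, against 20.7 FPKM in activation, where 1 of its transcripts has p = 0.0336 with a q of 0.999 in the authors' deposited table.

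**Figure D4:**
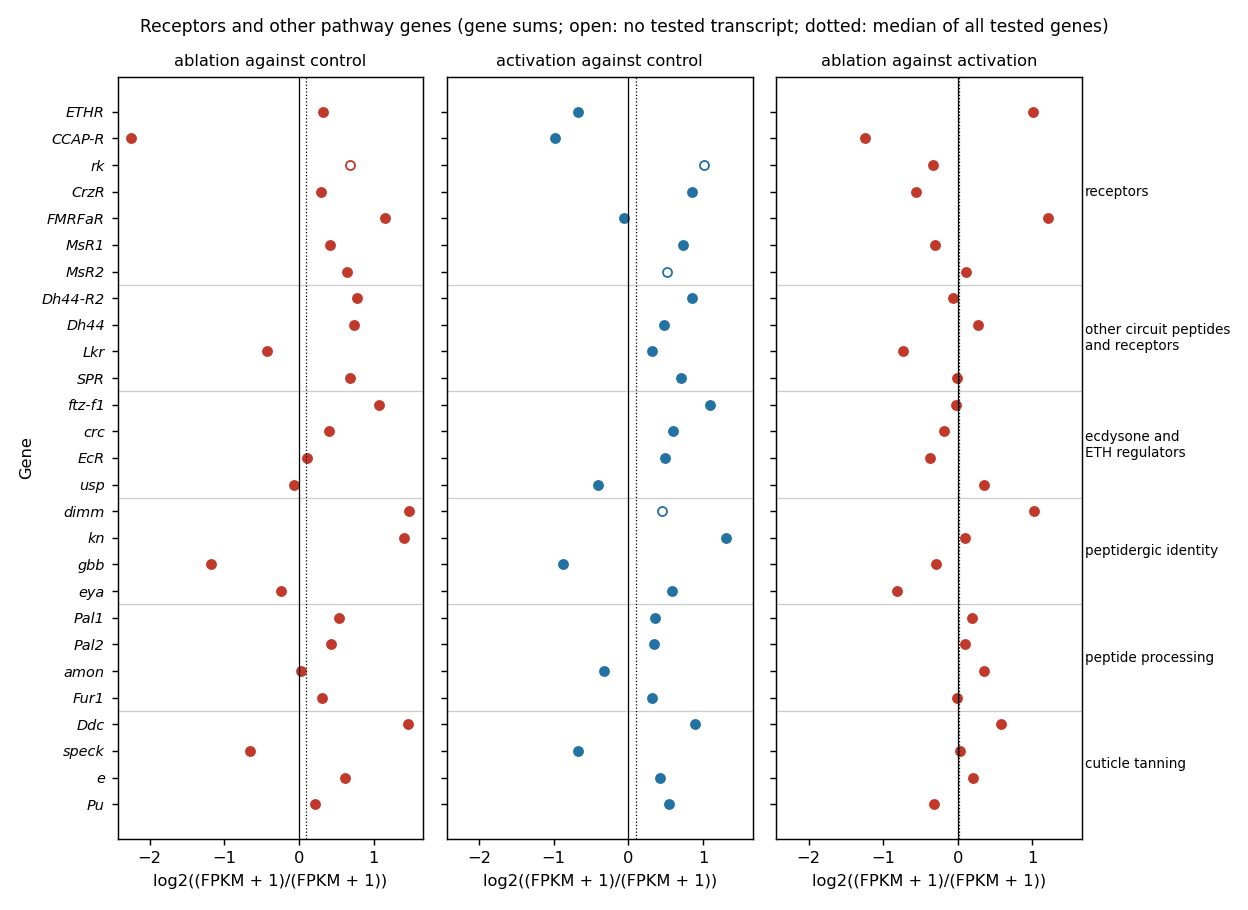
Change in gene sums, as log2 of the ratio of FPKM + 1, for the 7 receptors and for named genes of the 5 other lists, 1 panel per comparison, with open circles for genes with no tested transcript. CCAP-R lies farthest to the left in ablation against control, at -2.24, and dimm, Ddc and kn farthest to the right, at 1.48, 1.46 and 1.41.

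The enzymes that cut and amidate peptide precursors held no call. Of 7 genes 5 were higher in ablation than in control, with a median log2 change of 0.18, and 3 in activation than in control, with a median of -0.0046. Pal2, an enzyme of peptide amidation, had a sum of 154 FPKM in ablation, against 114 FPKM in control, and 141 FPKM in activation, against 111 FPKM in control. Pal1, of the same family, had 26.9 FPKM in ablation, against 18.2 FPKM in control. The prohormone convertase gene amon had 30.7 FPKM in ablation, against 30.1 FPKM in control, and 23.3 FPKM in activation, against 29.3 FPKM in control. Fur1, a furin protease, had 10.6 FPKM in ablation, against 8.40 FPKM in control.

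Tanning enzymes, which act downstream of bursicon in the cuticle, were partly too low for a test, with 4 of 9 tested in the comparisons with control and no call. Ddc, dopa decarboxylase, had a sum of 21.5 FPKM in ablation, against 7.14 FPKM in control (smallest p of its transcripts 0.263 in the authors' deposited table), and 13.8 FPKM in activation, against 6.97 FPKM in control. speck, an N-acetyltransferase, was lower, with 39.4 FPKM in ablation, against 62.8 FPKM in control, and 37.7 FPKM in activation, against 61.1 FPKM in control. e (ebony) had 8.08 FPKM and Pu, the GTP cyclohydrolase gene, 5.31 FPKM in ablation, against 4.90 and 4.41 FPKM in control. Ddc also acts in dopamine and serotonin synthesis in neurons.

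The samples hold brain RNA by their markers, with the lowest of 5 neuronal markers, futsch in activation, at 8.88 FPKM. Their sum was 307 FPKM in ablation, against 242 FPKM in control, and 276 FPKM in activation, against 236 FPKM in control, so neuronal markers too stood above control, with 5 of 5 and 4 of 5 higher. The 5 glial markers summed to 750 FPKM in ablation, against 572 FPKM in control, and 514 FPKM in activation, against 557 FPKM in control. The 6 muscle markers summed to 70.0 FPKM in ablation, against 55.4 FPKM in control, and 29.9 FPKM in activation, against 53.9 FPKM in control. The 4 ring gland markers found summed to 26.8 FPKM in ablation, against 42.1 FPKM in control, and 26.3 FPKM in activation, against 41.0 FPKM in control. Sums of midgut and fat body markers lay further apart than these, and so did those of trachea and epidermis against control, given above. Of the marker lists only midgut and fat body held calls. In ablation against control 1 midgut marker was called. In ablation against activation 4 midgut and 4 fat body markers were called. The midgut sums there were 1210 FPKM in ablation and 2.83 FPKM in activation. The fat body sums there were 314 FPKM in ablation and 33.2 FPKM in activation. The 6 midgut markers summed to 1234 FPKM in ablation, against 7.21 FPKM in control, and 2.82 FPKM in activation, against 7.04 FPKM in control. In activation 4 of these midgut markers were listed at 0, and in control 2 were. The 5 fat body markers summed to 320.1 FPKM in ablation, against 116 FPKM in control, and 33.1 FPKM in activation, against 113 FPKM in control. The part of these tissues in the values of the 8 genes was not tested.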

How the data were processed

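TopHat2, Cufflinks, Cuffdiff and build dm3 are named in the submitters' processing notes, with no version, setting or gene annotation. From Cuffdiff the authors deposited 3 tables, 1 per pair of groups, with FPKM per group, a log2 fold change, a test statistic (a score) and p-values and q-values. The tables name the activation group induction. Replicates were combined by the authors, so depth and values per sample are unknown, and the control values differ 1.03 times between tables as a median. Here transcripts were joined by CG number, gene sums were taken over transcripts, and list changes were computed as log2((FPKM + 1)/(FPKM + 1)). The deposited q were recomputed by Benjamini-Hochberg and differed by at most 5.15e-07. Locus starts were counted from 0 in the tables and are printed counted from 1. Symbols came from RefSeq and Ensembl annotations of another build, used for names, strand and widths only.

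The 8 genes and 6 lists (53 entries, of which 52 were used) were chosen with earlier results of these data known. Sbat was left out after the data were seen, because it matched another gene than the one meant. Of 41 marker entries 40 were found. Named were the 8 genes, all 7 receptors, and from each other list its called genes and up to 4 tested genes with the largest change. The adjustment was tested on simulated scores with 200 shifted transcripts. It recovered 99%, 100% and 99.5% of them, with 13, 8 and 10 false calls. The order is ablation against control, activation against control and ablation against activation. The shifts were large and the simulated p had no floor, while the smallest deposited p is 5e-05. The recovery thus checks the calculation only and says nothing of the power in these data. Tried as alternatives were q thresholds of 0.01 and 0.1, leaving out transcripts under 1 FPKM, pooled adjustment, the highest transcript only, pseudocounts of 0.1 and 5, centring, and group values from the other table. The work used matplotlib 3.10.9, pandas 2.3.3 and numpy 2.4.6 under Python 3.11.15.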

Additional observations from a re-analysis of the deposited data

How the results depend on the processing

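No paired analysis was possible because the tables hold 1 value per group, and for the same reason no replicate could be left out. The count of called members was also 0 in all 3 comparisons at q of at most 0.1 and with adjustment over the 3 tables together. Neither setting could have given a call. The deposited q of the members were at least 0.915, and an adjusted value cannot fall below its deposited p, of which the smallest was 0.0507. A minimum of 1 FPKM could only take calls away from a count of 0, so it tests nothing here. A threshold of 0.01 tests nothing here, since the smallest deposited q are 0.0324, 0.0537 and 0.0163. Over all transcripts, 0 passed at q of at most 0.01 in ablation against control (18 at 0.05) and 0 in ablation against activation (46 at 0.05), and in activation against control 11 passed at q of at most 0.1 and 11 with adjustment over the 3 tables, where 0 passed at 0.05. The median log2 change of the 8 members in ablation against control was 0.60, and became 0.61 and 0.54 with pseudocounts of 0.1 and 5, 0.49 when centred, and 0.61 with group values from the other tables. In activation against control it was 0.15, and became 0.12 with a pseudocount of 5, 0.039 when centred and 0.12 with the other tables. In ablation against activation it was 0.20, and became 0.19 with a pseudocount of 5, 0.19 when centred and 0.23 with the other tables. Of 120 single-gene values under these alternatives 117 kept their sign. A pseudocount cannot change a sign, and the highest transcript is the only one of each gene. Only centring and the group values from the other tables could thus change a sign. The exceptions are Crz in activation against control when centred (-0.04), and Ms there when centred (-0.10) and with the other tables (-0.02).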

Other observations

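Some further values were chosen after they were seen. Mip, which encodes myoinhibitory peptides found in a subset of the CCAP and bursicon neurons, had 17.1 FPKM in ablation, against 15.6 FPKM in control, and 19.0 FPKM in activation, against 15.2 FPKM in control, which is 1.09-fold and 1.25-fold of control. Lk, the leucokinin gene, had 218 FPKM in ablation, against 227 FPKM in control, and 182 FPKM in activation, against 221 FPKM in control. Neither was called. Of the 4 ring gland markers found, 2 were higher and 2 lower in ablation than in control, and none was called. Akh, the adipokinetic hormone of the corpora cardiaca, was listed at 0 in ablation, against 9.28 FPKM in control (p = 0.0777 in the authors' deposited table), and had 1.55 FPKM in activation, against 9.07 FPKM in control (p = 0.485). jhamt, an enzyme of juvenile hormone synthesis, had 2.08 FPKM in ablation and was listed at 0 in control (unadjusted p = 0.0165 in the authors' deposited table, q = 0.974). It had 1.14 FPKM in activation, where it was not tested. The ecdysone synthesis genes dib and sad had 1.88 and 22.8 FPKM in ablation, against 1.14 and 31.7 FPKM in control, and 2.86 and 20.7 FPKM in activation, against 1.11 and 30.8 FPKM in control.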
